A study of Mus musculus with 20 samples.

Results

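Glucose output and glycogen genes of the liver were followed across a range of doses of benzo(a)pyrene (BaP), a polycyclic aromatic hydrocarbon that forms DNA adducts. The 9 genes were *G6pc*, *Fbp1*, *Pcx*, *Pklr*, *Gys2*, *Pygl*, *Slc2a2*, *Ppargc1a* and *Foxo1*, chosen by name for their place in hepatic glucose metabolism and taken as every probe whose RefSeq accession carries one of these symbols. They had 11 probes, with 2 each for *Slc2a2* and *Foxo1*, among 41174 probes for 16535 named genes and unnamed transcripts on the array. All 11 probes were called present, as were 27346 probes in all, and each of the 11 was well above background on 20 of 20 arrays. Both marks rest on the liver channel alone, and the intensity of the reference under each ratio was not checked.

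RNA came from the livers of male Muta™Mouse animals, a transgenic strain that carries a bacterial reporter for mutations, at 25 weeks of age. Mice were gavaged daily for 28 days with olive oil (control, replicates 1 to 5) or with BaP in olive oil at a daily 25 (replicates 6 to 10), 50 (replicates 11 to 15) or 75 mg per kg of body weight (replicates 16 to 20), and were killed 3 days after the last dose, so the RNA shows the liver after a pause in dosing. Each group held 5 mice, each hybridized once on a 2-color array against a universal mouse reference RNA, and every value below is the log2 ratio of liver over that reference unless it is named as a difference. Food was freely available according to the study's methods, and the feeding state of each mouse at necropsy is not given in the sources used here.

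The liver keeps blood glucose steady by storing glucose as glycogen after meals and by releasing it between meals. Pyruvate carboxylase (*Pcx*) and fructose-1,6-bisphosphatase (*Fbp1*) are enzymes of gluconeogenesis, and the catalytic subunit of glucose-6-phosphatase (*G6pc*) makes the free glucose that leaves the cell, where the carrier GLUT2 (*Slc2a2*) moves it across the membrane. Liver pyruvate kinase (*Pklr*) runs the opposite way, at the end of glycolysis. Liver glycogen synthase (*Gys2*) builds glycogen and liver glycogen phosphorylase (*Pygl*) breaks it down. The transcription factor FOXO1 and the coactivator PGC-1α (*Ppargc1a*) raise transcription of gluconeogenic genes when insulin is low, so that *G6pc* and *Ppargc1a* are known to be higher in fasted liver and *Pklr* in fed liver.

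The labels name liver in one place and lungs in another, and the arrays read as liver. All 8 hepatocyte markers with a probe (among them *Alb*, *Ttr* and *Apoa1*) were well above background on every array, at control ratios of 3.56 to 6.91. Of 9 lung epithelium markers with a probe, 3 were so on every array and 2, the surfactant genes *Sftpc* and *Sftpb*, on no array. The control ratios of the 9 ran from -1.55 to 0.97. The mean ratio of the hepatocyte markers spanned 4.11 to 5.38 in the control arrays, with control replicate 4 the lowest, 4.81 to 5.40 at 25, 4.93 to 5.34 at 50 and 4.90 to 5.32 at 75 mg/kg/day. In the liver channel 67.5% of spots were marked well above background in control replicate 4, and 51.9 to 54.3% in the other control arrays. This share was 52.5 to 62.4% in the exposed arrays. The part of these differences in the values below was not tested. Dose also ran nearly in step with the position of the array on its slide: all 25 mg/kg/day arrays lay at position 2, all 75 mg/kg/day arrays at position 4 and 4 of 5 control arrays at position 1, so that dose and position cannot be told apart.

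No member gene was called at any dose. Called means a Benjamini-Hochberg adjusted p under 0.05 over all present probes together with a fold change over 1.5, in a limma fit of all 20 arrays. The background was 0% of the 27346 probes at 25, 0% at 50 and 0.135% at 75 mg/kg/day. At an unadjusted p under 0.05, 3 of 9 genes differed at 25 mg/kg/day (*Fbp1*, *Pklr* and *Slc2a2*) beside 7.81% of all probes, 0 of 9 at 50 beside 6.7%, and 2 of 9 at 75 (*G6pc* and *Pklr*) beside 11.2%, each with a higher mean in the exposed mice. The exposed and control values were fully separated for 0 of 9 genes, against 1.21%, 0.815% and 1.52% of all probes at the rising doses. With dose as a number, 0 of 9 genes had a trend at an adjusted p under 0.05 (background 0.157%), and 1, *G6pc*, had an unadjusted p under 0.05 (background 8.58%).

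By the brighter probe of each gene, the means of 8 of 9 genes, all but *Pygl*, lay above the control mean at each dose. The median difference over the 9 genes was 0.27 at 25, 0.19 at 50 and 0.24 at 75 mg/kg/day on the log2 scale, where the medians over all present probes were 0.000883, -0.00321 and 0.00249. With the liver channel alone, *G6pc* and *Pcx* lay below control at each dose, and *Fbp1* did at 50 mg/kg/day. The mean ratios of markers of several liver cell types were also above control, and their part in these differences was not tested. Not all cell types rose: the mean of 5 bile duct markers was -2.56 in controls and -2.70, -2.69 and -2.65 at the rising doses. The mean ratio of the 8 hepatocyte markers lay 0.31, 0.29 and 0.38 above control at the rising doses, with 4 of 8 at an unadjusted p under 0.05 and 0 called at 75 mg/kg/day. That of 7 endothelial markers lay 0.36, 0.44 and 0.69 above control, with array means of 2.31 to 3.11 in controls and 3.15 to 3.83 at 75 mg/kg/day. At that dose 4 of these 7 had an unadjusted p under 0.05, and *Lyve1* was called (2.23 ± 0.40 SE, limma adjusted p = 0.0189). The mean ratio of 7 Kupffer cell markers lay 0.22, 0.41 and 0.40 above control, with array means of 2.50 to 2.99 in controls and 2.77 to 3.47 at 75 mg/kg/day. At that dose only 1 of these 7, *Marco*, had an unadjusted p under 0.05, and it was called (2.19 ± 0.30 SE, limma adjusted p = 0.00148). The 2 means include *Lyve1* and *Marco* and were not taken without them. All 7 markers of both cell types were well above background on every array. The 3 comparisons share the same 5 control mice, so that a low control value raises all of them. The plot of values by mouse shows how widely the controls were spread.

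**Figure D1:**
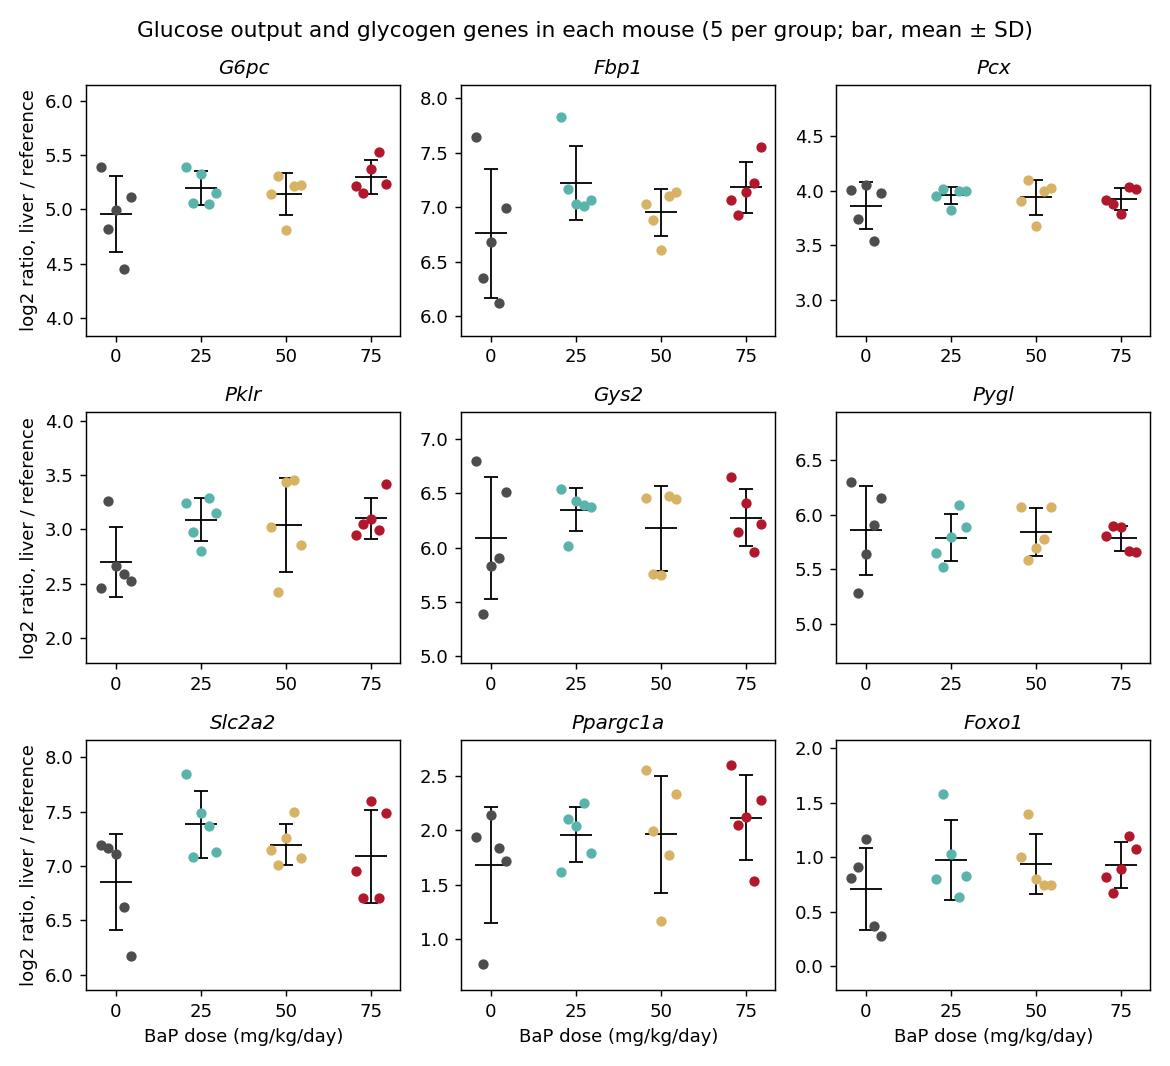
The log2 ratio of liver over reference (vertical axis, each panel spanning the same height) in each mouse against the BaP dose in mg/kg/day, with the group mean and SD as bars, for the brightest probe of each gene. In every panel the exposed values overlap the control values, and the control spread is the widest of the 4 groups for G6pc, Fbp1, Pcx, Gys2, Pygl, Slc2a2 and Foxo1.

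*G6pc*, the last step of glucose release, read 5.39, 4.82, 5.00, 4.45 and 5.12 in control replicates 1 to 5, and 5.39, 5.06, 5.32, 5.05 and 5.15 in replicates 6 to 10 at 25 mg/kg/day. It read 5.15, 5.31, 4.81, 5.22 and 5.23 in replicates 11 to 15 at 50 mg/kg/day, and 5.21, 5.15, 5.38, 5.53 and 5.23 in replicates 16 to 20 at 75 mg/kg/day. Only 1 mouse at 75 mg/kg/day, replicate 19, exceeded every control, and the lowest value of all belonged to control replicate 4. The control mean was 4.96 ± 0.35 (SD, n = 5) and the mean at 75 mg/kg/day was 5.30 ± 0.15 (SD, n = 5). The difference was 0.34 ± 0.14 (SE; 95% interval 0.05 to 0.64), or 1.27-fold, with an unadjusted p of 0.0238 and an adjusted p of 0.366 by limma. The differences were 0.24 at 25 and 0.19 at 50 mg/kg/day, both with intervals across 0, and the fitted trend was 0.29 ± 0.13 (SE) over 75 mg/kg/day with a limma adjusted p of 0.540. Without control replicate 4 the difference at 75 mg/kg/day was 0.22 with an unadjusted limma p of 0.101, and with the liver channel alone, without the reference, the sign turned, to -0.31. The brightness of the *G6pc* spot over both channels spanned 3.02 log2 units, the widest of the 11 probes, and was highest in control replicate 4; the part of this in the ratio was not tested.

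*Fbp1*, the enzyme that removes phosphate from fructose 1,6-bisphosphate, read 7.64 in control replicate 1, and 6.35, 6.68, 6.12 and 6.99 in control replicates 2 to 5. At 25 mg/kg/day it read 7.82, 7.17, 7.03, 7.01 and 7.07, at 50 mg/kg/day 7.03, 6.88, 6.61, 7.10 and 7.14, and at 75 mg/kg/day 7.07, 6.93, 7.14, 7.22 and 7.55, in the order of the replicates. The exposed groups sat inside the control range except for replicate 6. The difference was 0.46 ± 0.22 (SE; 95% interval 0.00 to 0.92) at 25 mg/kg/day with a limma adjusted p of 0.64, 0.19 at 50, and 0.42 (95% interval -0.04 to 0.88) at 75 mg/kg/day. Leaving out control replicate 1 took the difference at 75 mg/kg/day to 0.65, and leaving out control replicate 4 took it to 0.26, so that single controls moved it by over 1.5 times.

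*Pcx*, which makes the oxaloacetate from which gluconeogenesis starts, was the steadiest member. Its ratio lay between 3.54 (control replicate 4) and 4.10 (replicate 12) over all mice. The differences were 0.09, 0.08 and 0.06 at the rising doses, negative with the liver channel alone, and the 95% interval at 75 mg/kg/day ran from -0.15 to 0.28, or 0.90- to 1.21-fold, which leaves out a change of 1.5-fold in either direction.

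*Slc2a2*, the glucose carrier, was measured by both of its probes. The brighter probe read 7.19, 7.16, 7.11, 6.62 and 6.18 in control replicates 1 to 5 and 7.84, 7.08, 7.49, 7.37 and 7.12 at 25 mg/kg/day, where 3 of 5 mice exceeded every control. It read 7.15, 7.01, 7.25, 7.50 and 7.07 at 50 and 6.95, 6.71, 7.60, 6.71 and 7.48 at 75 mg/kg/day. The estimate was highest at the lowest dose, 0.53 ± 0.21 (SE; 95% interval 0.09 to 0.96) with a limma adjusted p of 0.636, followed by 0.34 at 50 and 0.24 at 75 mg/kg/day, and the doses were not tested against each other. This order did not hold with the scanner software's processed signals, which gave 0.45, -0.0581 and 0.55 at the rising doses. Without control replicate 5, the lowest, the differences were 0.36, 0.18 and 0.07. The dimmer probe put the largest difference at 50 mg/kg/day (0.43, 95% interval 0.06 to 0.81), with 0.31 at 25 and 0.15 at 75 mg/kg/day. After group means were removed the 2 probes correlated at r = 0.75 (Spearman's rho 0.80) over the 20 arrays.

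*Pklr*, the glycolytic enzyme that feeding is known to raise, read 2.47, 3.26, 2.66, 2.59 and 2.53 in control replicates 1 to 5 and 3.24, 2.98, 2.80, 3.29 and 3.16 at 25 mg/kg/day. It read 3.03, 2.42, 3.43, 3.46 and 2.86 at the middle dose and 2.95, 3.05, 3.10, 2.99 and 3.42 at the highest. All 5 mice at 25 and all 5 at 75 mg/kg/day exceeded 4 of the 5 controls, and the exception was control replicate 2. The differences were 0.39 ± 0.18 (SE) at 25, 0.34 at 50 and 0.40 ± 0.18 (SE; 95% interval 0.03 to 0.78) at 75 mg/kg/day, with a limma adjusted p of 0.413 at the highest dose. *Pklr* was higher than the control of the same slide on 3 of 3 slides at each dose, by 0.46, 0.57 and 0.49 at 75 mg/kg/day, on the slides that held a mouse of every group. Slide 6 held 2 controls, replicate 2 among them, and 2 mice at 50 mg/kg/day, and there *Pklr* had means of 2.96 in the controls and 2.93 in the exposed mice, a difference of -0.03. Without control replicate 2 its difference at 75 mg/kg/day was 0.54, with a limma adjusted p of 0.219.

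**Figure D2:**
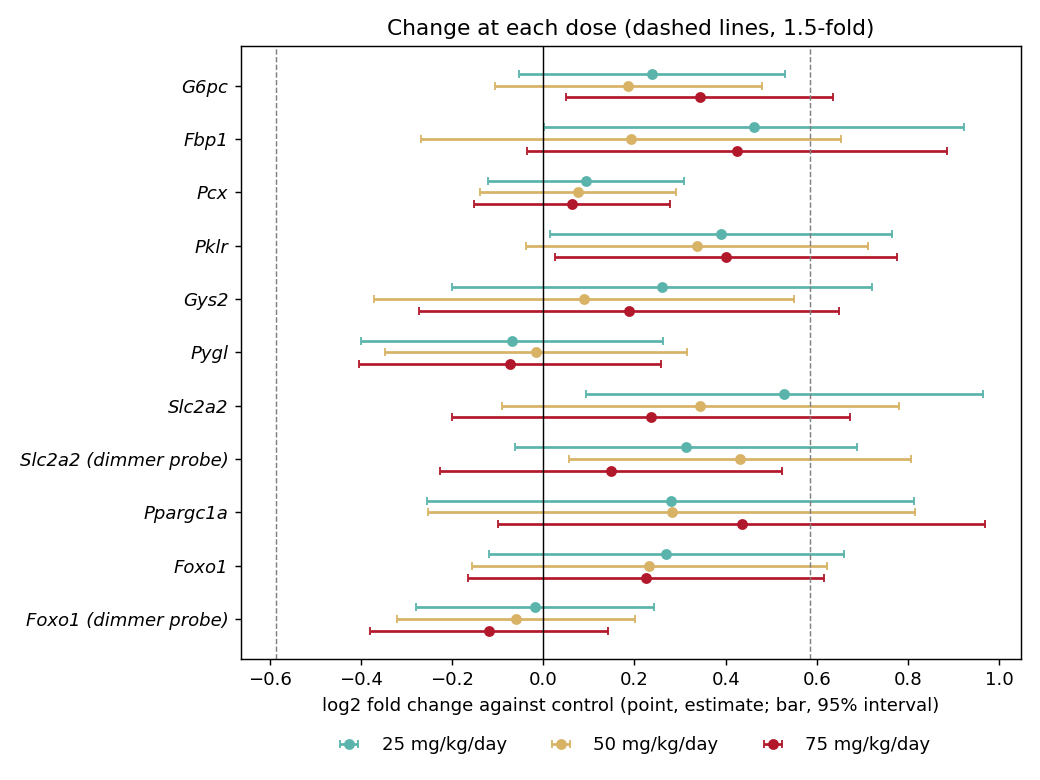
The log2 fold change against control (horizontal axis) for each of the 11 probes at 25, 50 and 75 mg/kg/day, with points for the limma estimate and bars for the 95% interval; dashed lines mark 1.5-fold. The intervals of G6pc and Pklr at 75 mg/kg/day lie above 0 before adjustment, and those of Pcx and Pygl lie inside the dashed lines at every dose.

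The enzymes of glycogen had limma adjusted p-values of 0.780 and above at all 3 doses. *Gys2* read 6.79, 5.39, 5.83, 5.91 and 6.51 in control replicates 1 to 5, which holds both the highest and the lowest value of all 20 mice, and lay between 5.74 and 6.65 in the exposed mice. Its differences were 0.26, 0.09 and 0.19 at the rising doses, with a 95% interval of -0.27 to 0.65 at 75 mg/kg/day. Without control replicate 2 they were 0.09, -0.08 and 0.01, and without control replicate 1 they were 0.44, 0.27 and 0.36. *Pygl* likewise had its extremes among the controls, at 6.30, 5.29, 5.64, 5.91 and 6.15, with 5.53 to 6.09 in the exposed mice. Its differences were -0.07, -0.02 and -0.07, with a 95% interval of -0.40 to 0.26 at 75 mg/kg/day, or 0.76- to 1.20-fold, and without control replicate 1 they were 0.04, 0.09 and 0.04.

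The regulators had the lowest ratios to the reference, which are not levels that compare one gene with another. *Ppargc1a* had a control mean of 1.68 ± 0.53 (SD, n = 5), with control replicate 2 at 0.77 and the other controls between 1.72 and 2.14. Its means were 1.96 ± 0.25 at 25, 1.96 ± 0.54 at 50 and 2.12 ± 0.39 at 75 mg/kg/day (SD, n = 5), and the difference at 75 mg/kg/day was 0.43 with a 95% interval of -0.10 to 0.97, the widest of the members. Without control replicate 2 its differences were 0.05, 0.05 and 0.21 at the rising doses. The brighter *Foxo1* probe read 0.71 ± 0.38 in controls and 0.98 ± 0.37, 0.94 ± 0.28 and 0.93 ± 0.21 at the rising doses (SD, n = 5). The dimmer probe had the opposite sign, with differences of -0.02, -0.06 and -0.12 where the brighter had 0.27, 0.23 and 0.23. The 2 *Foxo1* probes correlated at only r = 0.18 (Spearman's rho 0.13) over the 20 arrays after group means were removed, so no direction is given for this gene.

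The genes differed in how far mice of a group spread. The residual SD within groups was 0.44 for *Ppargc1a*, 0.38 for *Fbp1* and *Gys2*, 0.36 for *Slc2a2*, 0.32 for *Foxo1*, 0.30 for *Pklr*, 0.26 for *Pygl*, 0.23 for *G6pc* and 0.15 for *Pcx*, where the median of all present probes was 0.22. Only 6.20% of present probes had a larger SD than *Ppargc1a*, whereas 83.5% had a larger SD than *Pcx*. From the lowest to the highest mouse the ratio spanned 3.55-fold for *Ppargc1a*, 3.26-fold for *Fbp1* and 2.64-fold for *Gys2*, against 1.47-fold for *Pcx*.

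Part of this spread lay between slides. Differences between the 6 slides held 75.2% of the residual variance of *Gys2*, 70.2% of *Pygl* and 65.7% of *Foxo1*, and 11.4% of *Pcx*, against a median of 43.9% over all present probes. Slides 1, 2 and 3 each held a mouse of every group. Slides 4 and 5 held mice at 25 and 75 mg/kg/day (replicates 6 and 20, and 7 and 19) and no control. Outside slides 1, 2 and 3, a difference of these doses from control cannot be told apart from one between slides. For *G6pc* the 75 mg/kg/day mouse stood 0.69 above the control on slide 1, 0.26 above on slide 2 and 0.18 below on slide 3 (a difference of -0.18). *Fbp1* had differences of 0.81, 0.15 and -0.58 on the same slides, where control replicate 4 was the control of slide 1 and control replicate 1 that of slide 3. On these slides *Pklr* and, by its brighter probe, *Foxo1* were higher than control on 3 of 3 at each dose, where the doses of a slide share 1 control. For *Foxo1* the difference at 75 mg/kg/day on slide 3 was only 0.00542. Its dimmer probe was not compared within slides. On slide 6, which held only controls and mice at 50 mg/kg/day, the differences were -0.03 for *Pklr* and 0.06 for *Foxo1*. With the slide as a fixed block, 0 of 9 genes had an unadjusted p under 0.05 at 75 mg/kg/day, against 2 without it.

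Whether members varied together from mouse to mouse was asked over all pairs. Over the 20 arrays, after removal of group means, 2 of 36 pairs of genes correlated at a Benjamini-Hochberg adjusted p under 0.05 by a permutation test (100000 permutations within groups, two-sided). *G6pc* and *Fbp1*, both enzymes of gluconeogenesis, correlated at r = 0.79 (permutation p = 0.00079, adjusted p = 0.0189), with Spearman's rho 0.73 (permutation p = 0.0014, adjusted p = 0.0504). *Gys2* and *Pygl*, the opposed enzymes of glycogen, correlated at r = 0.81 (permutation p = 0.00105, adjusted p = 0.0189), with Spearman's rho 0.73 (permutation p = 0.00357, adjusted p = 0.0643). By rank, then, 0 of 36 pairs passed. Without the 2 arrays farthest from the median of the first gene, r was 0.60 for *G6pc* and *Fbp1* and 0.67 for *Gys2* and *Pygl*. Each had a permutation adjusted p of 0.115 and kept its sign. Leaving out extreme arrays narrows the range and the number of arrays, which by itself lowers r and raises p. The lost calls therefore cannot decide whether the correlations rest on those arrays. Without control replicate 4, r was 0.72 for *G6pc* and *Fbp1* and 0.83 for *Gys2* and *Pygl*, each with a permutation adjusted p of 0.0569. Without control replicate 1, r was 0.69 and 0.75, each with a permutation adjusted p of 0.0727.

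With slide differences removed as well, the test permuted the residuals with random signs, not within groups. In this setting *G6pc* and *Fbp1* correlated at r = 0.87 (permutation adjusted p = 0.00972) and *Fbp1* and *Gys2* at r = 0.83 (permutation adjusted p = 0.0166). *Gys2* and *Pygl* reached r = 0.64 (permutation adjusted p = 0.124). The array that was lowest for *G6pc* and *Fbp1*, control replicate 4, was also lowest for the hepatocyte markers (4.11), and control replicate 1, the highest control for both genes, was the highest control for the hepatocyte markers (5.38). The part of the hepatocyte marker level in these correlations was not tested. In whole liver, fewer hepatocytes and less RNA per hepatocyte cannot be told apart. Control replicate 4 also had the highest share of liver-channel spots well above background, 67.5%, and the part of this was not tested either.

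**Figure D3:**
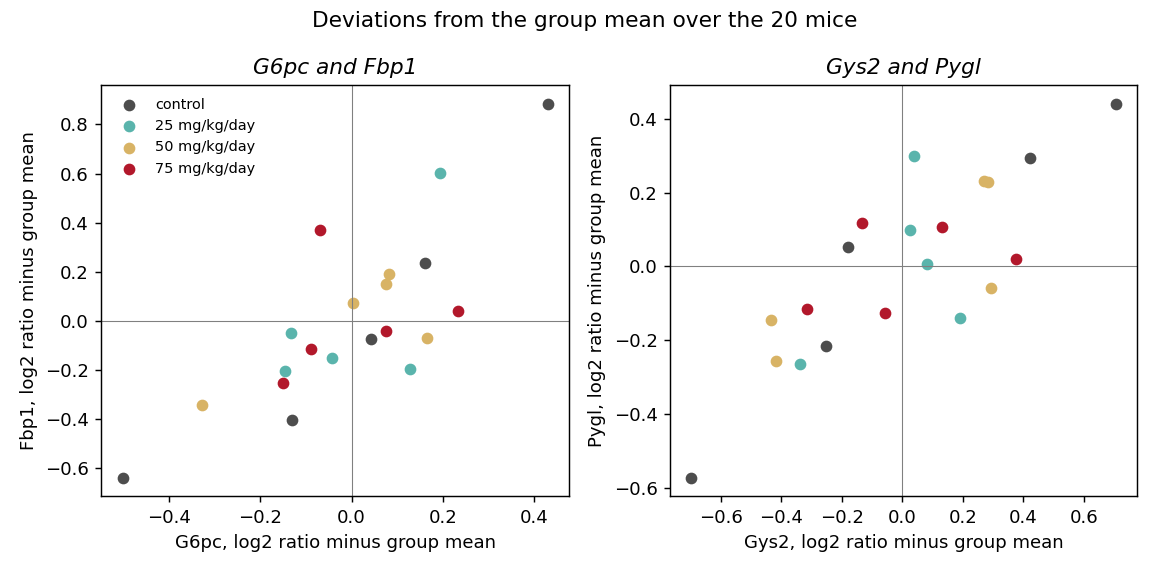
Deviations of each mouse from its group mean in log2 ratio, for Fbp1 against G6pc (left) and Pygl against Gys2 (right), with points colored by group. The points run from lower left to upper right, at r = 0.79 and r = 0.81, and the extreme points in both panels are control mice.

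Upstream sequence is shown for *G6pc*, *Fbp1* and *Pygl*, from the correlated pairs; *Gys2* is the other gene of those pairs. These are the 250 bases before the transcription start in RefSeq (GRCm38.p6), read 5′ to 3′ along the gene, with matches to any of the searched motifs in capitals.
G6pc, chr11:101367466-101367715 (+ strand): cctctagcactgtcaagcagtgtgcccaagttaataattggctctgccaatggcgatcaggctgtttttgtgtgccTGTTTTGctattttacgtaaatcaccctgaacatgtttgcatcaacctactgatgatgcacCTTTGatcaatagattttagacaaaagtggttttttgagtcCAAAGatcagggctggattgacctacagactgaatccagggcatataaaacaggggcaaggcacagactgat
Fbp1, chr13:62888283-62888532 (- strand): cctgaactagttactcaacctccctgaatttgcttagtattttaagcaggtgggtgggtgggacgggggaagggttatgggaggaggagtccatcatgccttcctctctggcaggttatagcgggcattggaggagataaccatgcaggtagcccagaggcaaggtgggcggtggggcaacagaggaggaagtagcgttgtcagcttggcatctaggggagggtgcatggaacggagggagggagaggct
Pygl, chr12:70227684-70227933 (- strand): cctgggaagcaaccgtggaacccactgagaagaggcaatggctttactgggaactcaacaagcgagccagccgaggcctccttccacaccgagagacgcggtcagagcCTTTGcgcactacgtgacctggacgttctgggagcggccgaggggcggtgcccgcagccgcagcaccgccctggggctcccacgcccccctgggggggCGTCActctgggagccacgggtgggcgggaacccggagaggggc

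The search covered both strands of windows from 250 bases before to 50 after the start, in 8 of the 9 genes (10 windows). *G6pc* held TGTTTTG, a form of the insulin response sequence, 174 bases before its start, which 6.28% of 32851 promoters in the table also held, and CAAAG, the HNF4 core, at 2 places (53.9% of promoters). *Pygl* held TGACG, the short form of the cAMP response element, 44 bases before its start on the opposite strand, as *Ppargc1a* did at 49 bases (20.8% of promoters). The *Fbp1* window held no match to the 7 motifs. CAAAG was in 5 of the 8 genes, CACGTG, the core of the carbohydrate response element, was in *Pcx* alone (7.15% of promoters), and TGACGTCA (1.79%), TGTTTAC (3.65%) and TGTTCT (19.0%) were in none of the members' windows. TGACG overlaps TGACGTCA. A match describes letters only. Imperfect forms of an element were not searched, so the lack of a match, as for CACGTG in *Pklr*, does not show that the element is absent.

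Outside the 9 genes, the transcripts whose mouse-to-mouse deviations were most like each member's are given as a description, since each pair is the best of all named present probes over the 20 arrays. *G6pc* was most like *Slc38a3*, a glutamine carrier (r = 0.92), and *Bhmt*, which remethylates homocysteine (r = 0.91). *Fbp1* was most like *Cyp2f2* (r = 0.98) and *Itih3* (r = 0.95), and *Gys2* like *Cdo1*, cysteine dioxygenase (r = 0.98), and *Cyp4f14* (r = 0.97). *Pygl* was most like *Tle4* (r = 0.95) and *Eif3l* (r = 0.94), *Pklr* like *Txnl4a* (r = 0.92) and *Retreg3* (r = 0.87), and *Ppargc1a* like *Zmym5* (r = 0.91) and *Igf1r* (r = 0.89). *Foxo1* was most like *Stra6* (r = 0.91) and *Ubn1* (r = 0.90), *Slc2a2* like *Smco4* and *Sgms2* (r = 0.87 for each), and *Pcx* like *Lsr* and *Fam114a2* (r = 0.83 for each).

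Among the other genes of the pathway, 0 of 22 present genes of gluconeogenic enzymes and carriers, 0 of 20 of glycolysis and fructose entry, 0 of 19 of glycogen turnover, 0 of 23 of transcription factors and coactivators and 0 of 20 of insulin and glucagon signaling were called at any dose. At an unadjusted p under 0.05 and 75 mg/kg/day, 6 of 22 gluconeogenic genes and 5 of 20 glycolytic genes were higher and none was lower, beside 6.52% of all probes higher and 4.69% lower. Their median differences were 0.17 and 0.16, beside 0.00 over all present probes. The gluconeogenic genes included *Tat*, which degrades tyrosine, and the glycolytic genes included *Khk*, which phosphorylates fructose. In glycogen turnover 1 of 19 was higher and 2 were lower, with a median of -0.06, among them *Ppp1r3b*, which brings a phosphatase to glycogen (-0.53 ± 0.25 SE, limma adjusted p = 0.428). Transcription factors had 3 higher and 1 lower, with a median of 0.16, and insulin and glucagon signaling 3 higher and 2 lower, with a median of 0.03. *Slc37a4*, the carrier that feeds *G6pc* its substrate, had a difference of -0.05 at 75 mg/kg/day. *Pck1* and *Irs2* were not analysed here.

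Genes whose response to feeding is well known bear on the nutritional state of the mice at necropsy. Of 17 present genes known to be higher in fed liver, 1 was called, *Fasn*, fatty acid synthase, at 75 mg/kg/day, beside 0.135% of all probes. At an unadjusted p under 0.05, 10 of the 17 were higher and 1, *Ppp1r3b*, was lower, beside 6.52% of all probes higher and 4.69% lower. The median difference was 0.34, beside 0.00 over all present probes. *Fasn* read 0.82 ± 0.33 in controls and 1.57 ± 0.22 at 75 mg/kg/day (SD, n = 5), a difference of 0.74 ± 0.15 (SE) with a limma adjusted p of 0.0401, and 4 of 5 mice exceeded every control. Its second probe gave 0.65 with a limma adjusted p of 0.112. Over 33 alternative settings the call of the first was kept in 11 and lost in 22, including each of those without control replicate 1, 2, 4 or 5. The difference by the first probe lay between 0.53 and 0.97 in all 33, some of which cannot change it. *Srebf1*, the transcription factor of lipogenesis, had a difference of 0.40 ± 0.17 (SE, limma adjusted p = 0.372).

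Of 19 present genes known to be higher in fasted liver, 0 were called at any dose. At 75 mg/kg/day 4 were higher at an unadjusted p under 0.05 and 0 were lower, beside 6.52% of all probes higher and 4.69% lower. The 4 were *Tat*, *Sds*, *Lpin1* and *Klf15*. The lists overlap: *Tat* and *Sds* were also counted above among the gluconeogenic genes, and *Klf15* among the transcription factors. The median difference over the 19 genes was 0.25. Without control replicate 4, or without control replicate 2, 0 of the 19 were higher at that threshold. *Pdk4*, which holds back pyruvate oxidation in fasting, ranged from 0.22 to 3.20 in the 5 controls and from 0.35 to 2.27 at 75 mg/kg/day, and its difference was -0.66 ± 0.53 (SE). *Igfbp1*, which insulin represses, had differences of -0.11, -0.28 and 0.29 at the rising doses, and *Tat* of 0.39, 0.27 and 0.49. *Ppp1r3c*, another glycogen-targeting subunit, had -0.26 at 75 mg/kg/day. The medians of both the fed and the fasted lists thus lay above 0 at 75 mg/kg/day, and the difference between the lists was not tested. The mean ratio of the hepatocyte markers lay 0.38 above control at that dose, and its part in these medians was not tested. At 50 mg/kg/day and an unadjusted p under 0.05, 4 of 17 fed-list genes were higher and 0 lower, beside 6.7% of all probes. In the fasted list 2 of 19 were higher and 2 lower at that dose. At 25 mg/kg/day 5 fed-list genes were higher and 0 lower, and 2 fasted-list genes higher and 0 lower, beside 7.81%.

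**Figure D4:**
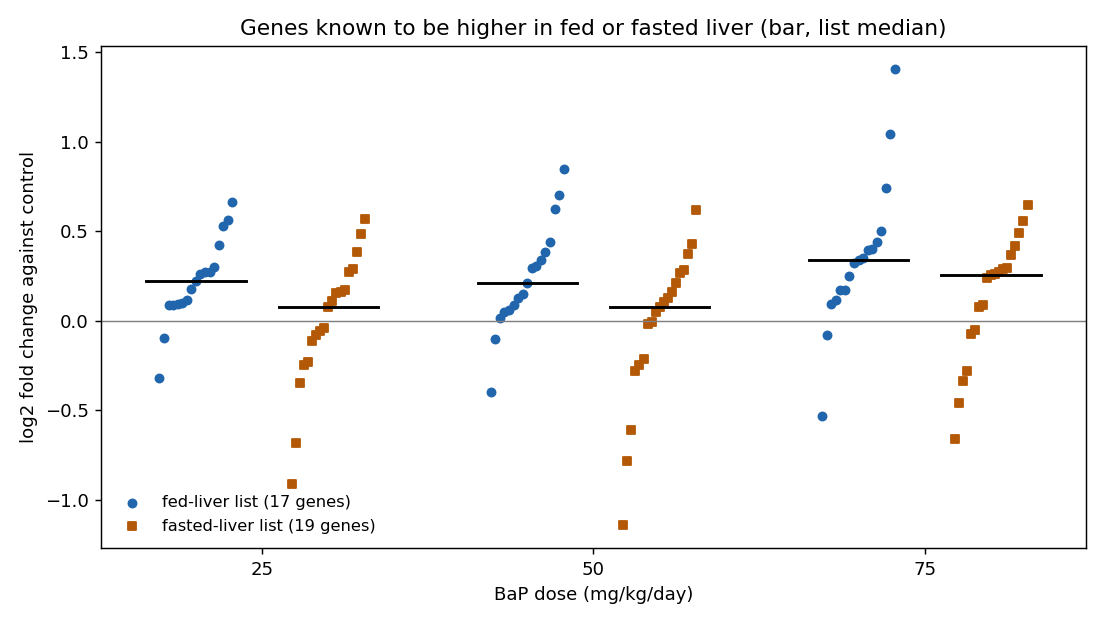
The log2 fold change against control (vertical axis) of each present gene known to be higher in fed liver (circles, 17 genes) or in fasted liver (squares, 19 genes), sorted within a list, at each BaP dose in mg/kg/day, with a bar at the list median. At 75 mg/kg/day the medians are 0.34 and 0.25, and both lists hold genes on either side of 0.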

How the data were processed

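Liver RNA of 20 mice, 5 in each of 4 groups, was hybridized once each with Cyanine 5 against Cyanine 3-labeled reference RNA on arrays of 45018 features. The median spot and background intensity of each channel was deposited by the authors as read by the Feature Extraction software (10.1.1.1 in the file headers), without normalization. The processed intensities and the log2 ratios of liver over reference, LOWESS normalized by the authors, served as alternatives. The software's marks deposited beside them gave outlier spots of both channels and well-above-background spots of the liver channel.

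Here the median intensities were background corrected by normexp (offset 50), loess normalized within arrays and averaged per probe as log2 ratios, with outlier spots left out. A probe counted as present if, on at least 4 of 5 arrays of a group, its median liver intensity lay more than 3 SDs over the mean of 153 negative control spots, both trimmed by 5%, as in the study's methods. Symbols came from RefSeq accessions (23374 probes). Each dose was contrasted with control in 1 limma 3.58.1 fit of all 20 arrays (R 4.3.3, statmod 1.5.0), with Benjamini-Hochberg adjustment within a contrast; a second fit took dose as a number. The limma fit replaces the MAANOVA fit of the methods. Intervals are 95% intervals of limma. Correlations were tested by permutation within groups. Those with slide differences removed as well were tested by permuting the coordinates of the residuals with random signs, not within groups. A gene is represented by its present probe of highest mean intensity. Named genes are the 9 members, fixed anchors of the pathway lists, called list genes, and the 2 most alike genes of each member. Not every fixed anchor is reported here. The 9 genes and all lists were chosen with earlier results of these data known. The series text gives a slightly different lowest dose; the 25 mg/kg of the labels was used. The methods removed 1 sample without naming it, and all 20 were used here. Coordinates are given for RefSeq promoters alone, since the array design is of another build. The fits were tested on simulated data. The number of arrays limits the precision. Alternatives covered the background correction, normalization, filter on dim probes, slide as a block, moderation and each array left out. Figures were drawn with Python and matplotlib.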

Additional observations from a re-analysis of the deposited data

Results flagged for a closer look

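In 2 of 44 groups of 5 mice tested, over the 11 probes, 1 mouse stood apart from the other 4 by more than Dixon's critical ratio, where chance alone gives about 1 in 20, or 2.2 groups. *Fbp1* in replicate 6 at 25 mg/kg/day read 7.82 and the nearest mouse of its group 7.17, a ratio of gap to range of 0.808. *Pklr* in control replicate 2 read 3.26 and the nearest control 2.66, a ratio of 0.754.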

How the results depend on the processing

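No member was called in any of 33 alternative settings of the fit, with a lowest limma adjusted p of 0.155. Of 1170 recomputed member differences and trends, 1139 kept their direction, and the cause of the 31 that turned was not tested. Many of the 1170 could not turn. Leaving out an array of another dose, equalizing brightness, keeping dim probes or changing the moderation leaves a difference from control as it was. With the scanner software's processed signals the difference at 50 mg/kg/day was -0.00102 for *Gys2* and -0.0581 for *Slc2a2*. With the liver channel alone *G6pc* had -0.15, -0.72 and -0.31 at the rising doses and a trend of -0.45, *Pcx* had -0.29, -0.24 and -0.30 and a trend of -0.26, *Fbp1* had -0.11 at 50 mg/kg/day and a trend of -0.0621, and *Foxo1* had a trend of -0.00253. With the slide as a fixed block *Gys2* had -0.0248 at 75 mg/kg/day and a trend of -0.00203. Leaving out each array in turn gave *Pygl* -0.211 to 0.0423 at 25, -0.159 to 0.0946 at 50 and -0.216 to 0.0375 at 75 mg/kg/day and a trend of -0.167 to 0.0455. It gave *Gys2* -0.0847 to 0.266 at 50 mg/kg/day and a trend of -0.0435 to 0.250, *Pcx* -0.00383 to 0.143 at 50 and -0.0181 to 0.111 at 75 mg/kg/day and a trend of -0.0230 to 0.0851, and *Slc2a2* a trend of -0.0248 to 0.263.

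Members at an unadjusted p under 0.05 numbered 0 at the lowest dose, 0 at the highest dose and 0 for the trend with processed signals; 1, 0 and 0 with the liver channel alone; and 1, 0 and 0 with the slide as a fixed block. They numbered 1 at 25 mg/kg/day and 0 for the trend with a trended, robust moderation, 1 at 75 mg/kg/day when control and that dose were fitted alone, and 1 at 50 mg/kg/day with the mean over a gene's probes. Leaving out 1 array gave 0 (without replicate 6) to 4 (without control replicate 1) members at 25, 0 to 2 (without control replicate 1) at 50, 0 (without control replicate 4) to 2 at 75 mg/kg/day and 0 to 2 for the trend. Fed-liver genes that were higher numbered 6 with the liver channel alone and 8 to 11 with 1 array left out, and fasted-liver genes 2 with processed signals, 1 with the liver channel alone, 1 with the slide block and 0 to 4 with 1 array left out. Correlated pairs numbered 0 without control replicate 1, 0 without control replicate 4 and 0 without the 2 farthest arrays; leaving out those controls was chosen after the data were seen. Equalizing the mean brightness between arrays leaves ratios as they are. No paired analysis was possible because the groups share no replicate numbers to pair mice by; the slide, which several groups share, was the block that could be fitted, and its counts are those given above.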
